A study of Mus musculus with 32 samples.

Results

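The zQ175 effect on a background without Msh3 was measured by comparing the striata of 8 zQ175:Msh3-/- mice with those of 8 Msh3-/- mice, 16 of the 32 mice in the series. The mice were chosen by their genotype labels alone. zQ175 is a knock-in of a long CAG repeat into the mouse Htt gene, the locus of huntingtin, and serves as a model of Huntington's disease. Msh3 encodes a mismatch repair protein that drives the lengthening of such repeats in tissues. All 16 mice were homozygous for an Msh3 allele made by CRISPR with guides to exons 3 and 8, so that both sides of the comparison lacked functional Msh3 and the groups differed in zQ175. The mice were on C57BL/6J, were bred as littermates and were 6 months old. The Msh3-/- group held 4 males and 4 females, and the zQ175:Msh3-/- group 5 males and 3 females. The other 16 mice, 8 wild-type and 8 zQ175 with intact Msh3, had the same age and tissue, and gave the zQ175 effect on the wild-type background. zQ175 was present in every cell of the animal, and RNA came from whole dissected striatum, so a lower level can reflect fewer cells of a type or less RNA per cell, which cannot be told apart here.

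Most neurons of the striatum are spiny projection neurons, which use GABA and fall into a direct pathway class that expresses the dopamine D1 receptor and dynorphin, and an indirect pathway class that expresses the dopamine D2 receptor, an adenosine receptor and enkephalin. Both classes share a signalling system in which adenylyl cyclase makes cyclic AMP, phosphodiesterases degrade it and DARPP-32 relays it. In Huntington's disease these neurons are the most affected cells, and loss of their characteristic mRNAs is a long-known feature of the disease and its models.

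Polyadenylated RNA was sequenced and the deposited read counts per gene summed to between 12449707 and 19871631 in Msh3-/- and between 12946237 and 18448721 in zQ175:Msh3-/- mice. Levels are given as counts per 1000000 (CPM) after TMM normalization, with the SD over 8 mice, and changes as log2 fold changes of zQ175:Msh3-/- minus Msh3-/- with standard errors (SE). Each SE was derived from the test, as the absolute log2 fold change divided by the square root of the F statistic. A gene was called raised or lowered when edgeR's quasi-likelihood test gave a Benjamini-Hochberg adjusted p-value under 0.05 over all 16610 genes tested and the fold change was at least 1.2. Msh3 reads, counted over the whole gene, were at 10.4 to 13.6 CPM in Msh3-/- and 11.1 to 14.2 CPM in zQ175:Msh3-/- mice, below the 22.9 to 27.5 CPM of wild-type and the 22.8 to 27.4 CPM of zQ175 mice, so each mouse matched its Msh3 label. The reads that remained do not show whether any stem from the targeted exons. The striatal label fitted the levels of 32 genes shared by spiny neurons, which summed to at least 14128 CPM in every mouse. Other tissue was present in part of the mice. Of 9 cortical excitatory neuron markers (Slc17a7, Tbr1 and others), all were detected in both groups and none was called, but all 9 had a positive log2 fold change, with a median of 0.59. Their sum was 71.0 to 533 CPM in Msh3-/- and 169 to 763 CPM in zQ175:Msh3-/- mice, and was under 100 CPM in 2 Msh3-/- males. The sum of 10 choroid plexus and ependyma markers (Ttr, Folr1, Kl and others) was over 900 CPM in 3 Msh3-/- mice and 1 zQ175:Msh3-/- mouse, reaching 3045 CPM in the last. Some of the counts below are given again without these mice. Counts that are not given again moved in part as well, and the part that other tissue plays was not tested.

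**Figure D1:**
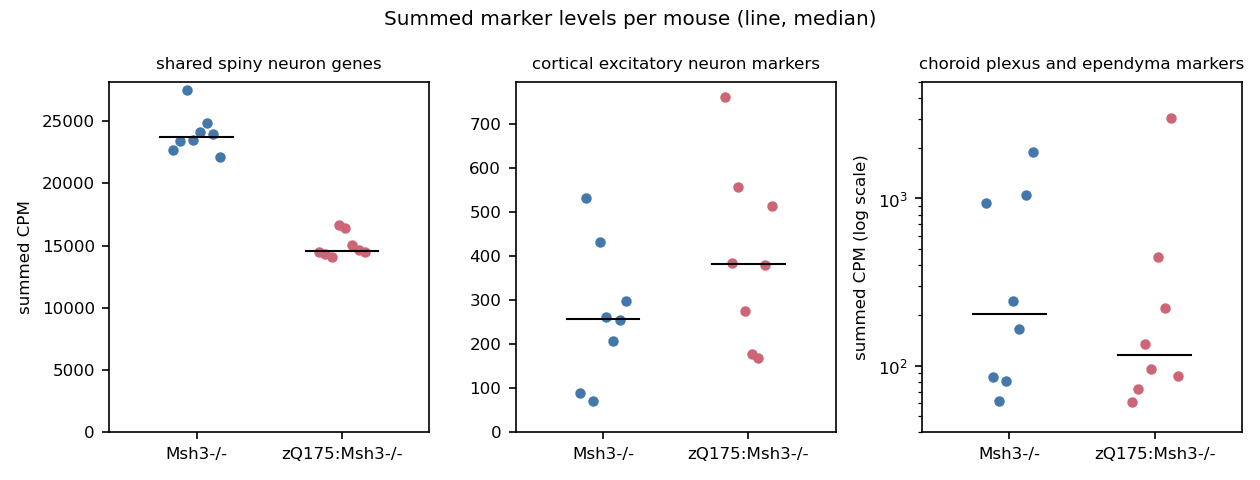
Summed CPM per mouse (points; lines, medians) of 32 shared spiny neuron genes, 9 cortical excitatory neuron markers and 10 choroid plexus and ependyma markers, the last on a log axis. The spiny neuron sums of the groups do not overlap, at 22151 to 27521 CPM in Msh3-/- and 14128 to 16624 CPM in zQ175:Msh3-/- mice, whereas the other sums overlap. The lists were chosen with earlier results of these data known.

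zQ175 changed 1768 genes on the Msh3-null background, 10.6% of those tested. Of these, 778 were raised (4.68%) and 990 were lowered (5.96%). Most changes were small: 575 raised and 690 lowered genes changed by less than 1.5-fold, and 27 raised and 80 lowered genes by 2-fold or more. The lowered side held more of the larger changes and more genes whose groups did not overlap. The CPM ranges of the groups were separate for 895 of the genes tested (5.39%), for 478 of the lowered genes (48.3%) and for 170 of the raised genes (21.9%). Direction differed with level. Of 2248 genes at 100 CPM or more over the 16 mice, 237 were lowered and 26 raised, and of 4787 genes between 1 and 10 CPM, 325 were lowered and 396 raised. Long noncoding RNA genes were raised in 104 and lowered in 80 of 1367 cases, and protein-coding genes in 623 and 879 of 14385. The split between raised and lowered depended on the scaling. The median log2 fold change of all tested genes was 0.014 in the counts and 0.081 on the TPM scale, where limma called 1523 genes raised and 699 lowered.

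**Figure D2:**
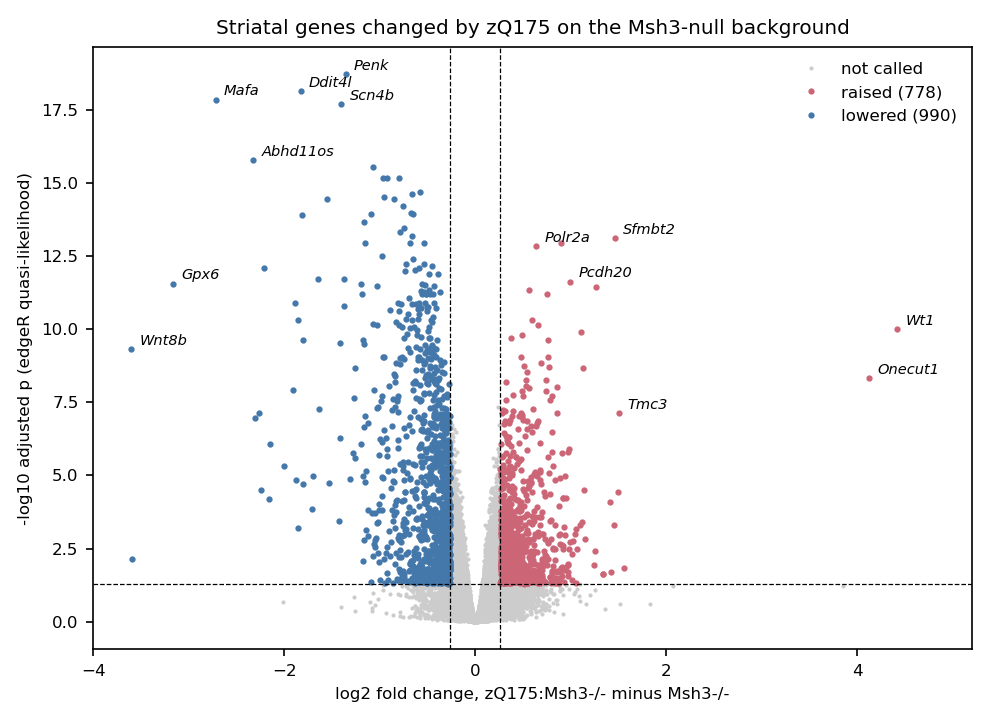
Log2 fold change of zQ175:Msh3-/- minus Msh3-/- (x axis) against the −log10 adjusted p-value of edgeR's quasi-likelihood test (y axis) for 16610 genes, with dashed lines at a 1.2-fold change and an adjusted p of 0.05. The 990 lowered genes reach smaller p-values than the 778 raised genes, and Wt1 and Onecut1 lie apart at the right.

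The listed genes that mark spiny neurons of both classes were lowered nearly throughout. Of 32 such genes tested, 31 were lowered (96.9%, against 5.96% of all genes) and none raised, with a median log2 fold change of -0.60. The ranges of the groups were separate for 28, and for 5.39% of all genes. The list was chosen with earlier results of these data known, so these counts describe its members only. The exception was Strip2, with a log2 fold change of 0.04 (adjusted p = 0.750 from edgeR). With both tissue marker sums as covariates 28 were lowered, without the 2 Msh3-/- males of low cortical sums 29, and with single mice left out 28 to 31. Scn4b (chr9:45138395-45154152), an auxiliary subunit of voltage-gated sodium channels, was at 1214 to 1638 CPM (median 1463) in Msh3-/- and at 521 to 608 CPM (median 551) in zQ175:Msh3-/- mice. Every zQ175:Msh3-/- mouse was below every Msh3-/- mouse, with 37.8% of the Msh3-/- level left (log2 fold change -1.40, SE 0.0621, adjusted p = 2.01e-18). Ddit4l (chr3:137621612-137628333), an inhibitor of mTOR signalling, ranged from 19.0 to 25.4 CPM (median 23.4) in Msh3-/- and from 5.60 to 7.64 CPM (median 6.43) in zQ175:Msh3-/- mice. Its log2 fold change of -1.83 (SE 0.0810, adjusted p = 7.46e-19) left 28.2% of the level. Ryr1, a calcium release channel of the endoplasmic reticulum, fell to a similar degree, from 87.8 to 127 CPM in Msh3-/- down to 28.7 to 34.2 CPM, a log2 fold change of -1.81. Arpp21, a cyclic AMP-regulated phosphoprotein, was at 1336 ± 126 CPM in Msh3-/- and 686 ± 43.6 CPM in zQ175:Msh3-/- mice. The phosphatase Ptpn5, the calcium sensor Hpca and the inositol trisphosphate receptor Itpr1 kept 67.2%, 66.5% and 67.4%. Wfs1, whose product sits in the endoplasmic reticulum, kept 76.4% and had overlapping ranges.

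Markers of both pathways were lowered, in part of each list. Of 8 indirect pathway genes, Penk, Adora2a, Gpr6 and Drd2 were lowered and none was raised, and of 9 direct pathway genes, Chrm4, Drd1 and Pdyn were lowered and Eya1 was raised. The difference between the lists was not tested. Penk (chr4:4133531-4138819 on GRCm38, the build of all positions given), which encodes the enkephalin precursor, had the smallest adjusted p of all genes (1.94e-19). It ranged from 1039 to 1207 CPM (median 1123) in Msh3-/- and from 391 to 498 CPM (median 425) in zQ175:Msh3-/- mice, with no overlap. Its log2 fold change was -1.36 (SE 0.0559). Adora2a, the adenosine receptor of these neurons, was at 416 to 509 CPM in Msh3-/- and 214 to 269 CPM in zQ175:Msh3-/- mice, a log2 fold change of -0.92. Drd2 and Gpr6, a constitutively active receptor, kept 58.9% and 56.1% of their levels. On the direct pathway side, Drd1 was at 223 to 293 CPM in Msh3-/- and 126 to 165 CPM in zQ175:Msh3-/- mice, again without overlap (log2 fold change -0.73, SE 0.0622, adjusted p = 4.54e-11). Chrm4, the muscarinic M4 receptor, fell to 57.6%. The dynorphin precursor Pdyn fell less, to 72.2%, and its ranges of 106 to 145 and 78.2 to 118 CPM overlapped. Tac1, the substance P precursor, had a log2 fold change of -0.01 (adjusted p = 0.898), with 148 to 180 CPM in one group and 147 to 180 CPM in the other. Among the transcription factors of spiny neurons, 7 of 26 were lowered (26.9%, against 5.96% of all genes) and 2 were raised (7.69%, against 4.68%). The lowered ones included Rxrg and Rarb, retinoid receptors, Foxp1, and Bcl11b, a regulator of spiny neuron differentiation that kept 77.5% of its level. Ikzf2 and Meis1 were raised, with log2 fold changes of 0.52 and 0.28.

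**Figure D3:**
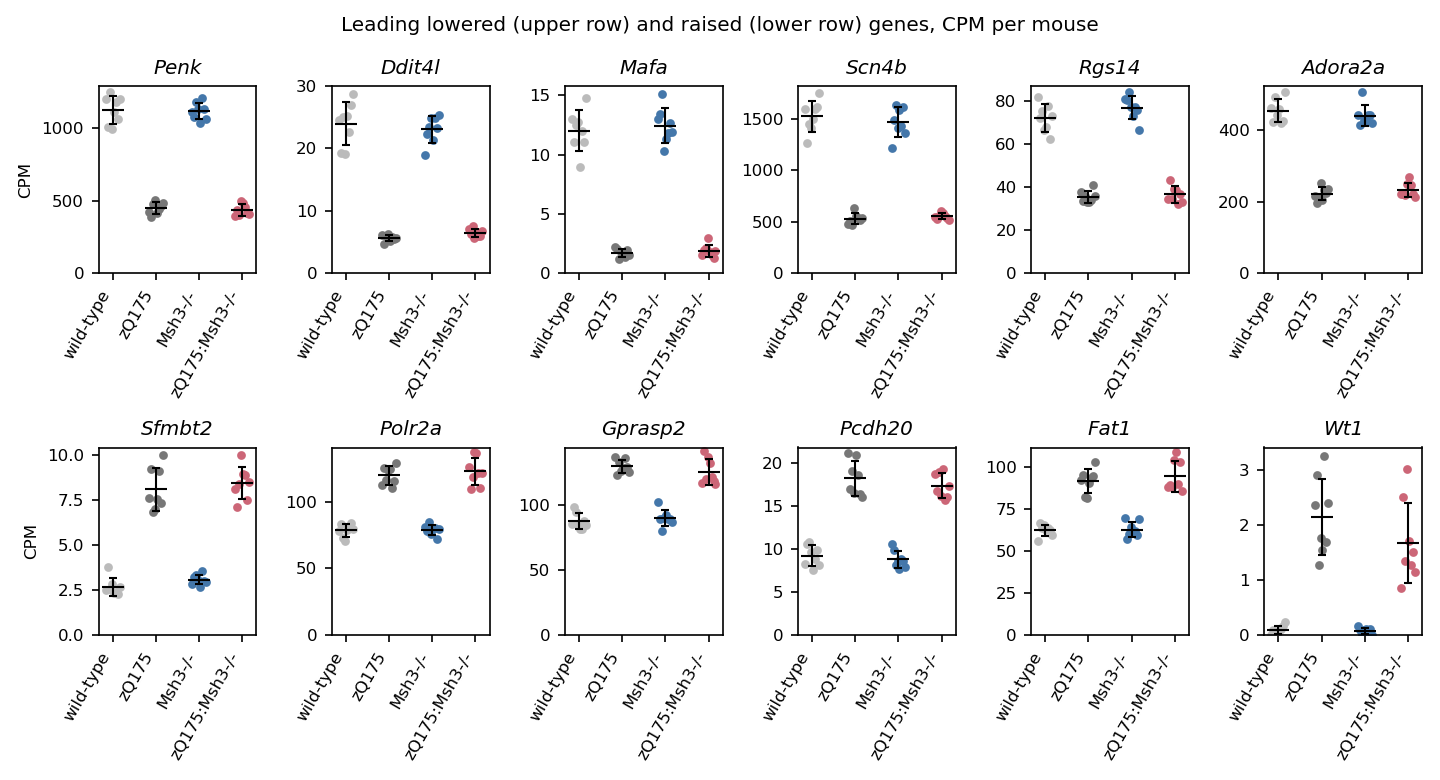
CPM of 12 leading genes in each mouse of the 4 genotypes (points), with mean and SD (bars); the upper row holds lowered and the lower row raised genes. The zQ175:Msh3-/- mice do not overlap with the Msh3-/- mice for any of these genes, for example at 391 to 498 against 1039 to 1207 CPM for Penk and at 7.09 to 10.0 against 2.67 to 3.53 CPM for Sfmbt2. The genes were picked for small adjusted p-values in this same comparison (edgeR), so the separation is a description.

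Among the enzymes of cyclic AMP signalling, Pde10a and Adcy5 were lowered, and most members of their families were not called. Among 20 phosphodiesterases tested, Pde10a, Pde1b, Pde7b, Pde2a and Pde1c were lowered (25.0%, against 5.96% of all genes). Pde4d was raised (5.0%, near the 4.68% of all genes). Pde10a, the phosphodiesterase most enriched in spiny neurons, was at 1570 to 2199 CPM (median 1686) in Msh3-/- and at 763 to 1015 CPM (median 892) in zQ175:Msh3-/- mice. It kept 50.6% of its level (log2 fold change -0.98, SE 0.0668, adjusted p = 3.04e-13). Pde1b kept 59.9%. Adcy5, the main adenylyl cyclase of the striatum, was the only one of 9 adenylyl cyclases called, at 1824 ± 122 CPM in Msh3-/- and 1058 ± 88.1 CPM in zQ175:Msh3-/- mice. The DARPP-32 gene Ppp1r1b fell from 2047 to 2724 CPM down to 1215 to 1575 CPM, a log2 fold change of -0.81. The related phosphatase inhibitor Ppp1r1a fell from 78.5 ± 3.48 to 49.5 ± 3.25 CPM. Regulators of G protein signalling, which switch off receptor signals, were lowered in 7 of 18 cases (38.9%) and raised in 1 (5.56%). Rgs14 fell from 66.4 to 84.3 CPM down to 32.2 to 43.4 CPM (log2 fold change -1.08, SE 0.0582, adjusted p = 2.95e-16). Rgs4 and Rgs9, the latter a partner of dopamine D2 receptors in the striatum, kept 57.6% and 59.6%, and Rgs19 was raised 1.43-fold.

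Receptor genes were called in both directions, to be read against the 4.68% of all genes raised and 5.96% lowered. Of 8 opioid peptides and receptors, Penk, Pdyn, Oprd1 and Oprk1 were lowered, and Oprl1, the nociceptin receptor, was raised 1.23-fold. The raised call of Oprl1 was lost without the 2 Msh3-/- males of low cortical sums. Among 31 dopamine, serotonin, adrenergic, histamine and muscarinic receptors, 8 were lowered (25.8%) and 1 was raised (3.23%, below the share of all genes). The raised gene was Htr2c, the serotonin 2C receptor, at 51.6 to 74.9 CPM in Msh3-/- and 75.2 to 127 CPM in zQ175:Msh3-/- mice (log2 fold change 0.59, SE 0.121, adjusted p = 0.000459). The cannabinoid receptor Cnr1 was at 238 to 394 CPM in Msh3-/- and 162 to 199 CPM in zQ175:Msh3-/- mice, and fell to 51.5%, whereas Faah, which degrades the endocannabinoid anandamide, was raised 1.56-fold. Of 7 metabotropic glutamate receptors, 3 were lowered, Grm5 and Grm4 among them, and Grm8 was raised. Of 18 ionotropic glutamate receptor genes, Grik2, Grin2c and Grin3b were lowered and Grik4 raised. Neto2, which encodes an auxiliary subunit of kainate receptors, fell from 132 to 189 CPM down to 80.3 to 93.0 CPM, a log2 fold change of -0.95 (adjusted p = 3.06e-15). Of 15 GABA-A receptor subunits, Gabrd and Gabrq were lowered and Gabra5 raised. The raised calls of Grik4 and Gabra5 were lost without the 2 Msh3-/- males of low cortical sums and with the tissue covariates. That of Gabra5 was also lost without the mice of high choroid plexus sums.

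Ion channel and synaptic genes were also called in both directions, to be read against the 4.68% of all genes raised and 5.96% lowered. Of 78 potassium channel genes, 12 were lowered (15.4%) and 4 raised (5.13%, near the share of all genes). Kcnab1, an auxiliary subunit, and Kcnj4, an inward rectifier, kept 63.5% and 73.6% of their levels, while Kcng1 was raised from 31.6 to 44.4 CPM in Msh3-/- to 49.9 to 61.5 CPM. Of 24 voltage-gated calcium channel subunits, 6 were lowered, led by Cacna2d3 and Cacng4, and Cacna2d1 was raised 1.24-fold. The sodium channel gene Scn9a was raised 1.72-fold, the opposite of Scn4b, but at 5.66 ± 1.13 and 9.80 ± 2.40 CPM and with overlapping ranges. On the postsynaptic side, 6 of 21 scaffold genes were lowered, among them Shank3 (66.1% left), Dlgap3 and Homer1, and Shank2 and Homer2 were raised. The raised calls of Shank2 and Homer2 were lost without the 2 Msh3-/- males of low cortical sums, and only 5 scaffold genes, all lowered, were called without Msh3-/- male 2, zQ175:Msh3-/- female 2 or zQ175:Msh3-/- male 5. On the presynaptic side, 5 of 16 synaptotagmins were lowered, with Syt10 and Syt9 falling to 59.8% and 64.2%, and 3 were lowered without zQ175:Msh3-/- female 1. Of 33 genes of the vesicle release machinery, 2 were raised (6.06%, near the 4.68% of all genes) and none lowered: Syp, the vesicle protein synaptophysin, from 661 ± 70.6 to 868 ± 89.9 CPM, and Unc13b, from 16.0 to 27.2 CPM to 24.8 to 32.9 CPM. The cortical marker medians of the groups were 259 and 383 CPM, and with the tissue marker sums as covariates Syp and Unc13b were both called raised (log2 fold changes 0.32 and 0.45).

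Activity-dependent and clock genes were called in 1 direction. Of 25 immediate early genes, 8 were lowered and none raised, with a median of -0.36. Homer1 was at 239 to 323 CPM in Msh3-/- and 138 to 204 CPM in zQ175:Msh3-/- mice, without overlap. The others, including Egr1, Egr2, Egr3 and Egr4, varied more between mice: Egr1 ranged from 177 to 565 CPM in Msh3-/- and from 163 to 274 CPM in zQ175:Msh3-/- mice. The count of immediate early genes fell to 4 without the 2 Msh3-/- males of low cortical sums and to 6 with the tissue covariates. Of 20 circadian clock genes, 8 were lowered and none raised, against 5.96% of all genes lowered. Npas2, a partner of BMAL1, fell from 64.0 to 88.0 CPM down to 43.3 to 53.4 CPM, without overlap (log2 fold change -0.56, SE 0.0566, adjusted p = 1.14e-09). The output factors Tef, Hlf and Dbp kept 82.6%, 76.7% and 61.2%. Between 6 and 9 clock genes were called when single mice were left out. The hour at which each mouse was sampled was not given in the sources used here.

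The largest falls were in genes of low level. Mafa (chr15:75745490-75748228), a transcription factor best known from pancreatic beta cells, ranged from 10.3 to 15.1 CPM (median 12.3) in Msh3-/- and from 1.31 to 3.01 CPM (median 1.83) in zQ175:Msh3-/- mice. Its 15.2% of the Msh3-/- level corresponded to a log2 fold change of -2.72 (SE 0.124, adjusted p = 1.42e-18). Wnt8b, a Wnt ligand, had 20 to 72 counts per mouse in Msh3-/- and 1 to 9 counts in zQ175:Msh3-/- mice, a level 8.24% as high. It passed the filter on low counts only through the groups without zQ175, where it is high, so a call was bound to follow. Gpx6, of the glutathione peroxidase family, fell from 3.71 to 9.38 CPM down to 0.399 to 1.07 CPM (11.1%). The transcript Abhd11os, annotated as a transcribed pseudogene, had a log2 fold change of -2.32, Sec14l3 kept 21.6% and Tmprss6, a serine protease of iron metabolism, 25.0%. The groups were separate for each of these 6 genes, which were picked for their large falls, so the separation is a description. At higher levels, Itpka, an inositol trisphosphate kinase of dendritic spines, fell from 156 ± 6.85 to 105 ± 5.55 CPM, and Ppp4r4, a regulatory subunit of protein phosphatase 4, from 73.9 ± 4.49 to 42.5 ± 2.98 CPM. Itga5 and Itga9, integrin chains, kept 53.7% and 55.4%.

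Sfmbt2 (chr2:10370510-10595253), a Polycomb group gene, had the smallest adjusted p of the raised genes, with 2.67 to 3.53 CPM (median 3.03) in Msh3-/- and 7.09 to 10.0 CPM (median 8.44) in zQ175:Msh3-/- mice. Every zQ175:Msh3-/- mouse was above every Msh3-/- mouse, and the level rose 2.75-fold (log2 fold change 1.46, SE 0.0996, adjusted p = 7.55e-14). Of 32 Polycomb genes tested, 4 were raised and none was lowered (12.5% raised, against 4.68% of all genes). They included Cbx8, a chromobox subunit of Polycomb repressive complex 1, and Scml2. Cbx8 rose from 7.26 to 11.7 CPM to 14.6 to 20.8 CPM. Scml2, under 2 CPM in every mouse, was called in 10 of the 16 fits that left out 1 mouse. Polr2a, the largest subunit of RNA polymerase II, was at 72.4 to 85.2 CPM in Msh3-/- and at 110 to 138 CPM in zQ175:Msh3-/- mice, a 1.56-fold difference (log2 fold change 0.64, SE 0.0449, adjusted p = 1.48e-13). Hdac1, a histone deacetylase, and Kdm6b, a demethylase of the Polycomb mark on histone H3, were raised 1.27-fold and 1.24-fold, whereas the demethylases Kdm4b and Kdm3a were lowered.

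A pair of developmental transcription factors had few or no reads in Msh3-/- striata and were detected in every zQ175:Msh3-/- mouse. Wt1 (chr2:105126529-105173616), a zinc finger factor of kidney and gonad development, had 0 to 2 counts in each Msh3-/- mouse and 14 to 44 counts in each zQ175:Msh3-/- mouse. The summed counts of 9 and 211 gave a ratio of 24.1 per count sequenced, with an exact 95% interval of 12.5 to 53.5 that covers counting error only. Onecut1 (chr9:74861921-74891781), a factor of liver and neuron development, had 0 to 4 counts in Msh3-/- and 16 to 34 in zQ175:Msh3-/- mice, a ratio of 19.7 (10.5 to 41.8). The fitted log2 fold changes were 4.42 (SE 0.404, adjusted p = 9.63e-11) and 4.12 (SE 0.444, adjusted p = 4.76e-09), and these were the only raised genes past 4-fold. An SE derived from the test is uncertain at counts this low and may be too small. Of the 34 homeobox and other developmental factors that passed the filter on low counts, 4 were raised (Onecut1, Onecut2, Nkx2-2 and En2) and 4 lowered, Zic1, Lhx8 and Nkx2-1 among them, and the list held 150 genes of the count table. Onecut1 passed that filter only through the groups with zQ175, where it is high, as did Wt1, so a call was bound to follow, and the count of raised factors supports nothing about the list. Without Msh3-/- male 1, which had a high choroid plexus sum and a low cortical sum, 4 were raised and 1 lowered.

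Other raised genes covered adhesion, metabolism and noncoding RNA. Pcdh20, a protocadherin outside the clusters, rose 1.99-fold, from 7.64 to 10.5 CPM to 15.7 to 19.3 CPM, and Fat1, an atypical cadherin, 1.51-fold. Asl, argininosuccinate lyase of the urea cycle, rose from 9.85 ± 0.858 to 15.5 ± 0.922 CPM. Vill, a villin-like gene, rose 2.16-fold, Tmc3 2.83-fold, and Gprasp2, whose product sorts G protein-coupled receptors, 1.40-fold. The antisense gene A830036E02Rik rose from 36.8 ± 3.66 to 68.5 ± 6.72 CPM, and Abhd1 from 2.28 ± 0.359 to 5.51 ± 0.655 CPM. Whether strand was used in counting is not given in the sources used here, so reads of an antisense gene and its partner may not be separable. Rn7s1 and Rn7s2, both copies of the 7SL RNA of the signal recognition particle, had identical counts in all mice, and their 2.53-fold rise is therefore 1 measurement. Its CPM ranges of 7.39 to 40.7 and 15.6 to 89.9 overlapped, as did those of Rpph1, the RNA of ribonuclease P, and neither kind of RNA normally carries a poly(A) tail. The calls of Rn7s1, Rn7s2 and Rpph1 were lost without the mice of high choroid plexus sums and without the 2 Msh3-/- males of low cortical sums, and those of the Rn7s pair also without zQ175:Msh3-/- female 1.

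The clustered protocadherins, neuronal adhesion molecules encoded side by side in 3 clusters on chromosome 18, held many raised members: of 57 tested, 29 were raised (50.9%) and 3 lowered. In the beta cluster 17 of 21 were raised and Pcdhb8 was lowered, with a median log2 fold change of 0.54. In the alpha cluster 8 of 14 were raised and none lowered, with a median of 0.42. Entries are gene identifiers, and the symbol Pcdha11 occurred both as a raised and as an uncalled alpha entry. In the gamma cluster 4 were raised and 2 lowered among 22. Pcdhb22 was at 8.97 to 12.3 CPM in Msh3-/- and 17.2 to 20.4 CPM in zQ175:Msh3-/- mice, a log2 fold change of 0.75 (SE 0.0614, adjusted p = 6.17e-12). Pcdhb19 and Pcdhb9 rose 1.69-fold and 1.45-fold, also without overlap. The raised gamma genes were Pcdhga1, Pcdhga2, Pcdhga4 and Pcdhgb1, and the lowered ones Pcdhga6 and Pcdhgb4. Pcdhga2 rose from 19.0 to 24.6 CPM to 31.0 to 42.0 CPM. Without the 2 Msh3-/- males of low cortical sums, 13 beta and 7 alpha genes were raised, and with the tissue covariates 16 and 7. Alpha and gamma variable exons are spliced to shared constant exons and members of each cluster are alike in sequence, so reads may have been split among members and single members are uncertain. Without the clusters, 18 of 392 genes on chromosome 18 were raised (4.59%), against 47 of 449 with them.

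**Figure D4:**
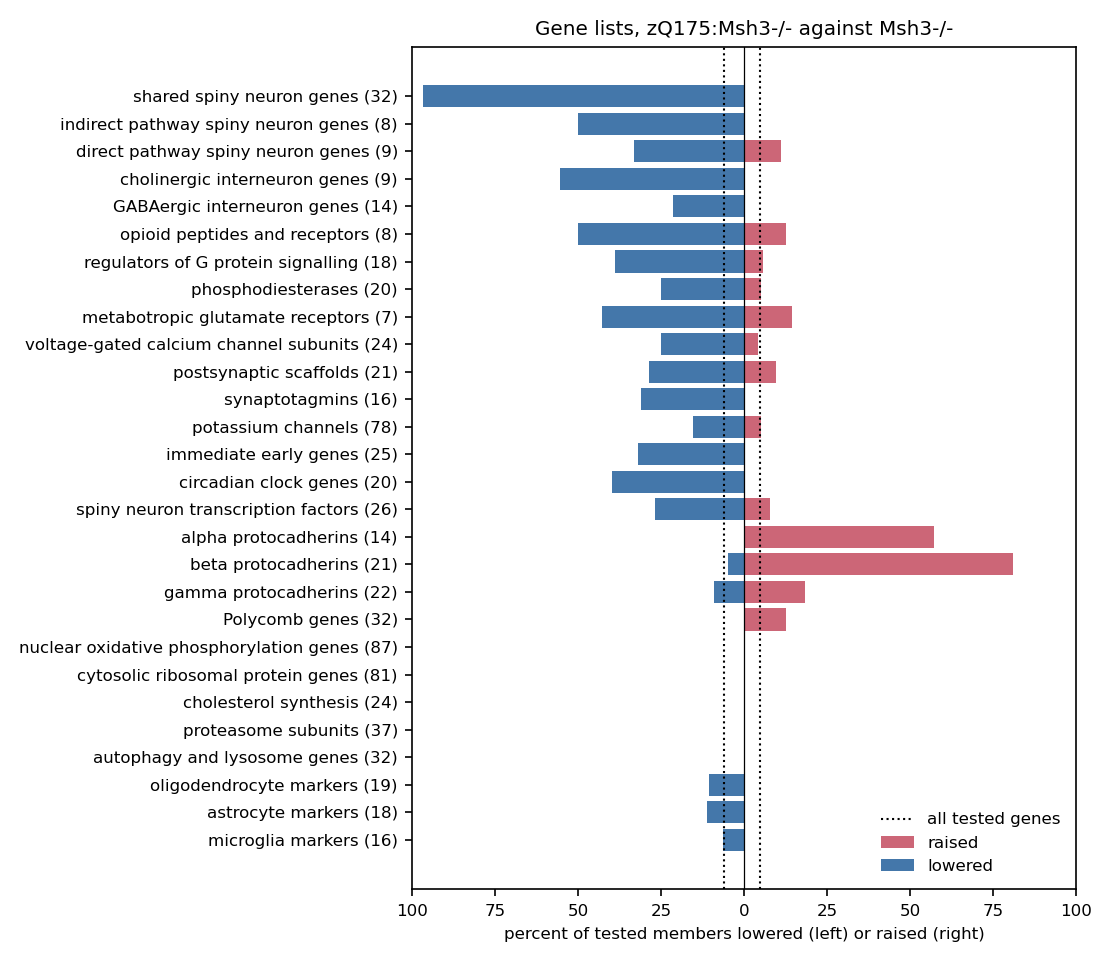
Percent of the tested members of 28 gene lists (number tested in brackets) that were lowered (bars to the left) or raised (bars to the right) in zQ175:Msh3-/- against Msh3-/- striata; dotted lines mark the 5.96% of all genes lowered and the 4.68% raised. Shared spiny neuron genes reach 96.9% lowered and beta protocadherins 81.0% raised, and 5 lists of housekeeping genes have no called member. The lists were chosen with earlier results of these data known.

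The promoters of 4 of these genes are shown because the genes were among the clearest of their kind: Ddit4l and Scn4b among the lowered, Sfmbt2 and Onecut1 among the raised. Each sequence runs 5′ to 3′ on the strand of the gene, from 250 bases before to 50 bases after the RefSeq start on GRCm38.p6, with CG dinucleotides in capitals. The windows lie on the plus strand at chr3:137623422-137623721, chr9:45138374-45138673, chr2:10370201-10370500 and chr9:74861671-74861970. For Ddit4l, Scn4b and Sfmbt2 the RefSeq start differs from the GENCODE start of the gene positions given above.
Ddit4l: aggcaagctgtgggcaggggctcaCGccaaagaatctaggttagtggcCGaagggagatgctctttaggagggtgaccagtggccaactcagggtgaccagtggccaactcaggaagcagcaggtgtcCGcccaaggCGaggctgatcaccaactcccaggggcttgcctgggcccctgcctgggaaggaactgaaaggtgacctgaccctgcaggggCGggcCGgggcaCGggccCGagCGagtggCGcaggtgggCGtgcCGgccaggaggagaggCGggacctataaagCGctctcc
Scn4b: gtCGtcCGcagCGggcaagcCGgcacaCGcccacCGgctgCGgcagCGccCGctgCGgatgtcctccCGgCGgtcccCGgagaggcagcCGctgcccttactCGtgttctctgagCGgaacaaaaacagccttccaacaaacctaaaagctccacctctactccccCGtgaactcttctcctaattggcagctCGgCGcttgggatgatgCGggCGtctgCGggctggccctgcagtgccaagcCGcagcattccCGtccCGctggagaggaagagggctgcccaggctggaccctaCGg
Sfmbt2: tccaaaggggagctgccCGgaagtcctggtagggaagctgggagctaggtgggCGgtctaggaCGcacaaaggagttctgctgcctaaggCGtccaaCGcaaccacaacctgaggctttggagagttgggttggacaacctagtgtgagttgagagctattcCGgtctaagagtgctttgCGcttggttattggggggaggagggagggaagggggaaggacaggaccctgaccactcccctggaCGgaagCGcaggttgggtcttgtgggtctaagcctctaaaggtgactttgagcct
Onecut1: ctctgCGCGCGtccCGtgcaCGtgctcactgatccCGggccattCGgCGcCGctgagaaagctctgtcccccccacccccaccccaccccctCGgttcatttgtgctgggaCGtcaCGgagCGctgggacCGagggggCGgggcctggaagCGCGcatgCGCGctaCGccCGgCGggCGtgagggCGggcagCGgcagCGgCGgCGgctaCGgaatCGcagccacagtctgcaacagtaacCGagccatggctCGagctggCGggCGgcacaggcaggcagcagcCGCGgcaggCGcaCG
They hold 14, 26, 9 and 38 CG dinucleotides, so that neither the lowered nor the raised pair was uniformly CG-rich. Over the tested genes with a promoter in the table, the first window listed for each gene, the median was 20 CG dinucleotides for 11880 of 16580 genes, 17 for 520 raised and 18 for 693 lowered genes. The cyclic AMP response element TGACGTCA, the same on both strands, stood in 3.17% of these windows, in 4.81% of those of raised genes and in 1.88% of those of lowered genes. It was in none of the 4 printed windows and in none of 26 windows of shared spiny neuron genes. These are descriptions of letters in a window of 300 bases.

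Htt itself did not pass the fold threshold. It was at 154 to 176 CPM in Msh3-/- and 132 to 157 CPM in zQ175:Msh3-/- mice, a log2 fold change of -0.17 (SE 0.0390, adjusted p = 0.00160 from edgeR). Reads were counted over the whole gene, so the value does not separate the alleles. The Msh3 reads that remained had a log2 fold change of 0.13 (adjusted p = 0.133). Of 18 genes in the list of huntingtin and its partners, none was called in edgeR or DESeq2. An unadjusted p under 0.05 in edgeR was found for 8 of them, and for 5803 of all 16610 genes tested. From the list, 1 was called with the tissue covariates and 1 without Msh3-/- male 2, zQ175:Msh3-/- female 1 or zQ175:Msh3-/- female 3. Of 16 mismatch repair and repeat expansion genes, Rrm2b, a ribonucleotide reductase subunit, was raised, from 38.3 to 43.0 CPM to 46.8 to 51.8 CPM, a log2 fold change of 0.28 that fell under the fold threshold without the 2 Msh3-/- males of low cortical sums. Lig1 was also called without Msh3-/- male 1 or zQ175:Msh3-/- male 1. Mlh3, Pms2 and Lig1 had adjusted p-values from 0.00549 to 0.0184 with changes under 1.2-fold, and log2 fold changes of 0.17, 0.17 and 0.24.

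Several large families held no called gene in edgeR or DESeq2. Their counts at an unadjusted p under 0.05 in edgeR are to be read against 5803 of all 16610 genes tested. Of 87 nuclear oxidative phosphorylation genes 23 had an unadjusted p under 0.05, and of 13 mitochondrially encoded genes 5. Of 81 cytosolic ribosomal protein genes 36 had an unadjusted p under 0.05, and 73 had a negative sign with a median log2 fold change of -0.08. That median was -0.01 on the TPM scale, and -0.01 for zQ175 against wild-type mice in the counts. The number with an unadjusted p under 0.05 was 3 of 37 proteasome subunits and 11 of 32 autophagy and lysosome genes. It was 8 of 24 cholesterol synthesis genes and 2 of 21 interferon response and MHC class I genes. Cholesterol synthesis genes gained calls under other settings: 3 without Msh3-/- male 1, 1 in each of 10 other fits that left out 1 mouse, 2 without the mice of high choroid plexus sums and 1 with sex in the model. Single calls appeared among oxidative phosphorylation genes without Msh3-/- female 2, among proteasome subunits without Msh3-/- female 1 or zQ175:Msh3-/- male 2, among interferon genes without zQ175:Msh3-/- male 4, among mitochondrially encoded genes without the 2 Msh3-/- males of low cortical sums, and among autophagy genes without the mice of high choroid plexus sums. Among heat shock proteins and chaperones, 6 of 78 were lowered (7.69%, near the 5.96% of all genes), led by Dnajc2, Dnajc8 and Hsp90b1, and Hspb11 was raised (1.28%, against 4.68% of all genes), and 3 were lowered without Msh3-/- male 4 and 4 without zQ175:Msh3-/- female 1. Of 20 mTOR regulators, Ddit4l, Rasd2, Deptor and Castor1 were lowered, and 2 without zQ175:Msh3-/- female 1. Rasd2, a small GTPase of the striatum also known as Rhes, fell from 752 ± 63.7 to 505 ± 42.4 CPM, without overlap.

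Guidance, matrix and signalling families each held a few calls, to be read against the 4.68% of all genes raised and 5.96% lowered. Of 29 semaphorins and plexins, Plxna3, Sema6c and Plxnb3 were raised and Plxnd1 and Sema7a lowered (10.3% and 6.90%). Plxna3, a semaphorin co-receptor, rose from 14.7 ± 1.45 to 19.5 ± 0.870 CPM, and Plxnd1 fell from 176 ± 13.4 to 140 ± 7.01 CPM, both without overlap. Of 20 ephrins and Eph receptors, Efna5 and Ephb2 were raised and Epha8 lowered. Of 39 collagens, 5 were raised (12.8%) and 3 lowered (7.69%), and without Msh3-/- male 4 these were 3 and 2. The counts of these families rest on 1 to 5 genes each way. Col6a2, a chain of collagen VI, was the collagen of smallest adjusted p, with 19.0 ± 1.61 CPM in Msh3-/- and 26.7 ± 1.29 CPM in zQ175:Msh3-/- mice. Of 20 dual specificity phosphatases, which act on MAP kinases, 4 were lowered, and 2 without Msh3-/- male 4. Dusp18 kept 68.9% and Dusp14 60.3%. Of 18 genes listed as neuropeptide precursors, Penk, Pdyn, Cartpt and Crh were lowered. Nxph4, a neurexophilin gene that the list also held, was raised. The calls of Crh and Nxph4 were lost in most fits that left out 1 mouse, holding in 4 and 7 of 16.

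Genes of other striatal cell types were described by the same counts, to be read against the 4.68% of all genes raised and 5.96% lowered. Of 9 cholinergic interneuron genes, 5 were lowered, Chat, Slc5a7, Slc18a3 and Lhx8 among them, and all 9 had a negative sign, with a median of -0.32. Chat, which makes acetylcholine, was at 23.8 to 34.9 CPM in Msh3-/- and 19.0 to 24.6 CPM in zQ175:Msh3-/- mice. The count of cholinergic genes was 2 with the tissue covariates, without the mice of high choroid plexus sums, without the 2 Msh3-/- males of low cortical sums, and without Msh3-/- male 1 alone. Ngfr, a neurotrophin receptor gene that was not in the cholinergic list, was lowered to 51.5% with overlapping ranges. Of 14 GABAergic interneuron genes, Npy2r, Th and Pthlh were lowered. Astrocyte markers were lowered in 2 of 18 cases (11.1%), Slc4a4 and Glul, and 16 had a negative sign. Of 6 reactive astrocyte markers, S1pr3, a receptor for sphingosine 1-phosphate, was raised (log2 fold change 0.32, adjusted p = 0.00379 from edgeR), with overlapping ranges of 4.69 to 6.93 and 5.93 to 8.08 CPM, and 5 had a positive sign. Gfap, which reactive astrocytes raise and which was counted among the astrocyte markers, had a log2 fold change of -0.06 (adjusted p = 0.784). Oligodendrocyte markers were lowered in 2 of 19 cases (10.5%), in 4 without Msh3-/- male 1 or male 3, and in 7 without zQ175:Msh3-/- male 3. Without the mice of high choroid plexus sums 4 were lowered. Endothelial markers were lowered in 2 of 15 cases (13.3%). Tyrobp was lowered among 16 microglia markers (6.25%, near the share of all genes), and 3 markers were without Msh3-/- male 2 or zQ175:Msh3-/- female 1. The glial and endothelial counts of called genes rest on 1 or 2 genes each. The summed astrocyte markers of the groups did not overlap, at 7623 to 8377 CPM in Msh3-/- and 6758 to 7397 CPM in zQ175:Msh3-/- mice. The sums of the other glial and vascular lists overlapped. All 15 endothelial and all 8 pericyte markers and 15 of 16 microglia markers had a negative sign, with medians of -0.18, -0.14 and -0.15. On the TPM scale these were -0.10, -0.08 and -0.08. Whether these cell types changed was not tested. The astrocyte count fell to 1 without zQ175:Msh3-/- female 1 or Msh3-/- male 4. None of 7 oligodendrocyte precursor markers was called in edgeR or DESeq2, or had an unadjusted p under 0.05. Of 6 neuroblast and proliferation markers, Dcx and Sox11, both genes of immature neurons, were raised 1.48-fold and 1.47-fold and all 6 had a positive sign, and 4 were raised without Msh3-/- female 2 and all 6 with the tissue covariates.

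The zQ175 effect was set beside that on the wild-type background, to ask whether it differed between mice with and without Msh3. The study's methods give a slightly shorter mean CAG repeat for zQ175:Msh3-/- than for zQ175 mice. Repeat length and Msh3 therefore cannot be told apart in this contrast. Between zQ175 and wild-type mice, 1925 genes were called (11.6%), 781 raised (4.70%) and 1144 lowered (6.89%). In the test of the difference between the zQ175 effects, no gene passed an adjusted p of 0.05 in edgeR or DESeq2, the smallest adjusted p in edgeR was 0.999, and 737 genes (671 in DESeq2) had an unadjusted p under 0.05. Penk had log2 fold changes of -1.36 on the Msh3-null and -1.32 on the wild-type background, and the 95% interval of the difference was -0.19 to 0.12. The difference was -0.42 to 0.16 for Sfmbt2, -0.10 to 0.16 for Polr2a and -2.11 to 1.88 for Wt1, whose low counts leave it wide. For Pcdhb22 (0.75 and 0.52) and Ddit4l (-1.83 and -2.08) the intervals were 0.06 to 0.41 and 0.02 to 0.49, before adjustment for the number of genes. Of the 1768 called genes, 338 raised and 219 lowered genes were not called between zQ175 and wild-type mice. Of the 338, 313 had the same sign there, with a median log2 fold change of 0.21 against 0.40 on the Msh3-null background, and of the 219, 211 had the same sign, with medians of -0.22 and -0.35. Genes chosen by their call on the Msh3-null background are expected to show larger values there, so these medians are a description.

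**Figure D5:**
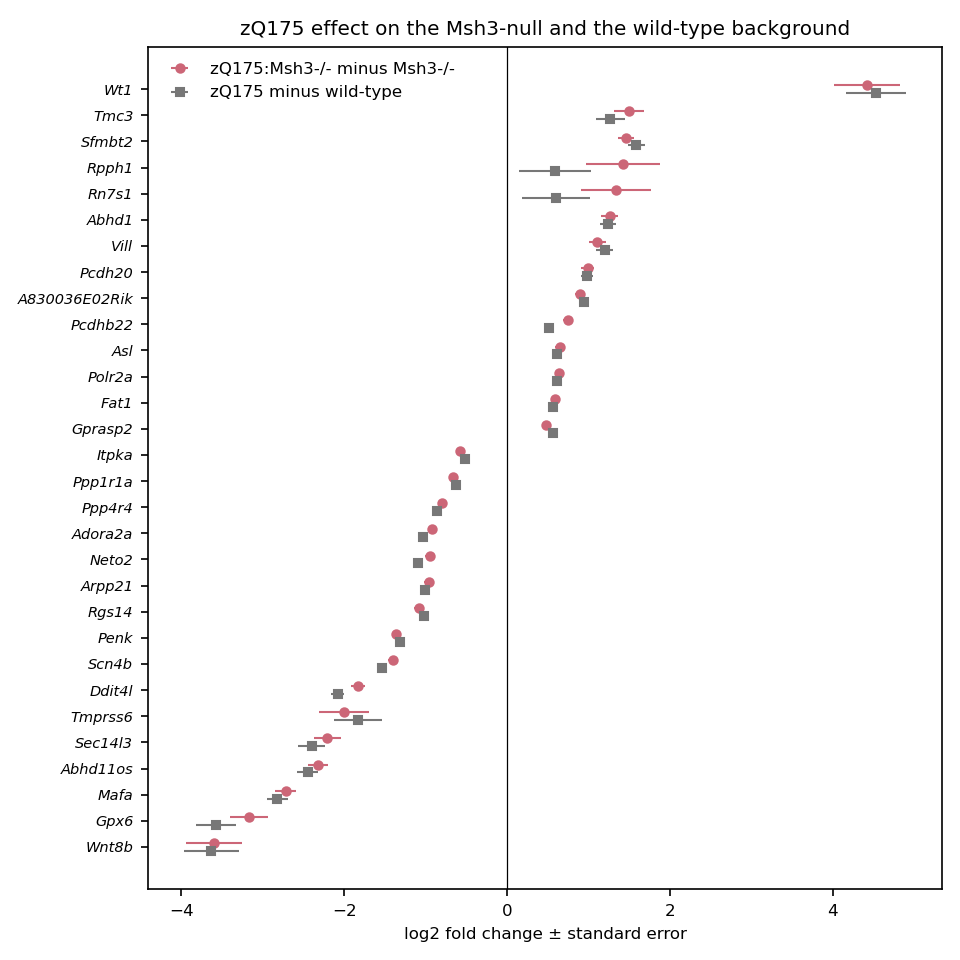
Log2 fold changes with standard errors of 30 leading genes for zQ175:Msh3-/- minus Msh3-/- (circles) and zQ175 minus wild-type (squares), each from 8 mice against 8. Every gene has the same sign on both backgrounds, and Rpph1 and Rn7s1 have the widest errors and the largest gaps of the plotted genes.

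Males and females were compared on the Msh3-null background. No gene of 15957 passed the interaction of zQ175 with sex in edgeR (smallest adjusted p = 0.733) or DESeq2, and 1010 (889 in DESeq2) had an unadjusted p under 0.05. Of the called genes fitted in males alone, all 1765 kept their sign and 1173 were called, and of 1766 in females alone, 1764 kept their sign and 840 were called. Females alone set 3 against 4 mice. The log2 fold change of Mafa was -2.97 in males and -2.37 in females, that of Penk -1.43 and -1.27, and that of Tmc3 1.84 and 1.11. X-linked genes were raised in 39 and lowered in 16 of 547 cases (7.13% and 2.93%), against 4.61% and 6.07% of autosomal genes, and with sex in the model in 40 and 15 cases.

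Some named calls rested on a few mice. Of the genes named above, Castor1, Crh, Deptor, Gabra5, Homer2, Hspb11, Meis1, Nkx2-1, Nxph4, Pcdhb8, Pcdhgb4, Pde1c, Pthlh, Scml2, Shank2 and Zic1 were each called in 4 to 12 of the 16 fits that left out 1 mouse. Single Msh3-/- mice decided the calls of Chat and Lhx8 (male 1), Egr4 and Oprl1 (male 2), Dnajc8 (female 3) and Hsp90b1 (male 4), and zQ175:Msh3-/- males those of Grik4 (male 1) and En2 (male 3). Pde2a was lost without Msh3-/- male 2 or male 4, Ephb2 without Msh3-/- male 2 or zQ175:Msh3-/- female 2, Tef without Msh3-/- male 4 or zQ175:Msh3-/- male 3, and Glul without Msh3-/- male 4 or zQ175:Msh3-/- female 1. Apart from these, Rn7s1 and Rn7s2, the called genes named above held their call in all 16 fits.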

How the data were processed

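Striata of 32 mice were analysed, of which the 8 zQ175:Msh3-/- and 8 Msh3-/- mice form the comparison described. The authors deposited raw read counts per gene for 54532 genes, from polyA-selected paired-end libraries on GRCm38.p6 per the submitters' processing notes, and the aligner, counter and strand setting are not given in the sources used here. The authors also deposited a table named as FPKM whose columns sum to 1000000, so it was taken as TPM. Columns were matched to mice by the column name given in each sample's description, and every column was used. Counts were tested in edgeR 4.0.16 (R 4.3.3) with TMM, a filter on low counts within the 4 genotypes (16610 genes left), and a robust quasi-likelihood test in a single model with a term for each genotype, calling adjusted p under 0.05 and a fold change of 1.2 or more, the thresholds of the study's methods. DESeq2 1.42.0, the kind of test the study used, and limma 3.58.1 on log2(TPM + 0.1), which understates changes of low genes, were alternatives. Each mouse was taken as 1 replicate.

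The comparison, gene lists and alternatives were chosen with earlier results of these data known. Genes were named by a rule: the 12 raised and 12 lowered of smallest adjusted p, the 6 of largest fold each way with a mean of at least 1 CPM, up to 3 called members of each of 60 lists each way, Htt and Msh3. Some genes the rule picks are not reported here. A further 32 genes such as Strip2, Tac1, Gfap, Ryr1 and Ppp1r1b were named after their values were seen, as were the mice left out for tissue markers. Gene positions are from GENCODE M21, which holds 54409 of the gene identifiers, and promoters from RefSeq, with none taken from chromosome 18. Intervals of differences use the SE derived from the test and t with the residual degrees of freedom of the design. The shallowest library of the comparison held 12449707 counts, and intervals on counts cover counting error only. The fits were tested on simulated counts. Python 3.11.15 with scipy 1.17.1 and pandas 2.3.3 made the summaries, and matplotlib 3.10.9 the figures.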

Additional observations from a re-analysis of the deposited data

Results flagged for a closer look

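Among 350 sets of 8 mice (the genes named in the text, the total counts and 3 marker sums, in both groups), 19 held a highest or lowest mouse whose gap to the nearest of the others, divided by the whole range on the log2 CPM scale, was above Dixon's critical value at the 95% level. Chance gives about 17.5 of 350, and no explanation was tested. Msh3-/- male 2, which also had the lowest cortical marker sum (71.0 CPM), was the highest Msh3-/- mouse in 7 of the 19: Adora2a (509 CPM, the others 416 to 444, ratio 0.671), Rgs9 (718 CPM, the others 522 to 573, ratio 0.708), Gabrd (147 CPM, ratio 0.614), Kcnj4 (226 CPM, ratio 0.541), Itga5 (37.1 CPM, the others 26.7 to 29.7, ratio 0.675), Kdm3a (91.5 CPM, ratio 0.548) and Slc4a4 (340 CPM, ratio 0.647). Without Msh3-/- male 2 and male 1, the 2 mice of low cortical sums, 31 of 32 shared spiny neuron genes became 29.

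Msh3-/- male 1 was lowest for Cnr1 (238 CPM, the others 320 to 394, ratio 0.591) and highest for Lhx8 (14.8 CPM, the others 7.33 to 10.2, ratio 0.529). In the same group the lowest mice for Cbx8 (7.26 CPM, male 3, ratio 0.535) and Pms2 (11.5 CPM, male 4, ratio 0.637) and the highest mouse for Abhd1 (3.08 CPM, female 2, ratio 0.541) stood apart. Among zQ175:Msh3-/- mice, male 4, the mouse with the highest choroid plexus sum, had 143 CPM of the choroid plexus gene Kl against 5.36 to 24.8 CPM in the others (ratio 0.535). The highest mice for Ryr1 (34.2 CPM, female 3, ratio 0.581), Chrm4 (39.5 CPM, male 2, ratio 0.539), Kcnj4 (165 CPM, male 2, ratio 0.627) and Grin2c (59.9 CPM, male 5, ratio 0.610) and the lowest for Sox11 (22.8 CPM, male 1, ratio 0.586) and Sema6c (12.6 CPM, male 3, ratio 0.562) stood apart in that group.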

How the results depend on the processing

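The count of 1768 called genes stayed within 1.5 times under DESeq2 (1757), RLE normalization (1775), both filter alternatives (1662 and 1586), sex in the model (1780), the 2 groups alone (1653), males alone (1583), limma on the TPM values and every left-out mouse (1580 to 1853, 660 to 846 raised and 920 to 1007 lowered). No fold threshold gave 4002 genes (1953 raised, 2049 lowered), a threshold of 1.5-fold 503 (203 and 300), glmTreat against 1.2-fold 541 (149 and 392) and females alone 1067 (394 raised), by construction stricter, looser or on fewer mice. On the TPM scale limma called 1523 raised genes with a pseudocount of 0.1, 1309 with 1, and 1451 without a filter; the cause was not tested. Small list medians, such as those of oxidative phosphorylation genes (-0.04 and 0.03), changed sign with this scale. Chosen after seeing the data, leaving out the mice of high choroid plexus sums gave 1719 genes, the 2 of low cortical sums 1508, and tissue covariates 1811, and all 1768 genes kept their sign. Of 206 genes (174 chosen by rule and 32 more), 28, 32 and 17 lost their call there, and 1 under DESeq2. None of these results reversed.

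The labels number males and females in each genotype. Mice of the same sex and number did not deviate together, with correlations from -0.126 to 0.208 over 7 pairs, so the numbers were not taken as pairs. With the replicate block 1694 genes were called (751 raised, 943 lowered), 15 of the 206 genes lost their call, and no gene passed the interaction with Msh3 genotype.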
